A study of Homo sapiens with 41 samples.

Results

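The collagen genes are the protein-coding genes whose symbol is COL, a number, A and a number, and 44 of the 58721 genes of the count table met that rule. They were followed in T98G, a human cell line from a glioblastoma, which leaves the cell cycle without serum. The cells were grown in medium with 10% fetal calf serum, starved of serum for 72 h and then given medium with 20% fetal calf serum. Total RNA depleted of rRNA was sequenced at every 10 min up to 400 min, with starved cells as the 0 min point. There are 41 time points with 1 library each and no replicates, all from a single tumour line. A normalised count is the count of a gene over the size factor of the library (median of ratios).

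A collagen is a protein of 3 chains wound into a triple helix, and each gene encodes a chain. Fibrillar collagens form the cross-banded fibrils of connective tissue, and fibril-associated collagens sit on their surface. Type IV collagen forms the sheet of basement membranes, type VI beaded filaments and type VII the anchoring fibrils under the skin. Chains are hydroxylated and folded in the endoplasmic reticulum, exported, trimmed by procollagen proteases and cross-linked by lysyl oxidases outside the cell, where integrins and discoidin receptors bind them. Serum is a classical inducer of matrix and wound-healing genes in cultured cells.

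Of the 44 genes, 30 passed the filter on low counts, which required more than 10 counts in some library and more than 2 in a run of 3 consecutive libraries. These 30 are the collagen genes tested. The filter kept 10 of 11 fibrillar chains, 5 of 6 type IV chains, 3 of 5 type VI chains, 6 of 10 fibril-associated chains, 2 of 4 transmembrane chains, 2 of 3 short-chain network chains, 1 of 2 endostatin-bearing chains, the anchoring fibril chain COL7A1 and neither of the other 2. The 14 that did not pass were COL4A3, COL6A5, COL6A6, COL9A1, COL9A2, COL9A3, COL10A1, COL11A1, COL15A1, COL20A1, COL23A1, COL25A1, COL26A1 and COL28A1. None of these 14 had over 10 counts in any library, and 10 of them were listed at 0 in 20 or more libraries.

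The start regions of 4 genes are printed to set genes that moved in opposite directions side by side. COL4A2, whose window also holds the start of COL4A1, COL27A1 and COL7A1 were higher at 400 min than at 0 min, and COL4A5 was lower. Each is the 250 bases before and the 50 after the RefSeq start on GRCh38.p14, read along the strand of the gene, at chr13:110307034-110307333 for COL4A2, chr9:114155287-114155586 for COL27A1, chr3:48595280-48595579 for COL7A1 on the minus strand, and chrX:108439588-108439887 for COL4A5. Capitals mark matches on either strand to CCAAT, to the GC box GGGCGG, to the TATA box TATAAA, to the AP-1 motif TGANTCA or to a CArG box, the motif of serum response factor.
COL4A2: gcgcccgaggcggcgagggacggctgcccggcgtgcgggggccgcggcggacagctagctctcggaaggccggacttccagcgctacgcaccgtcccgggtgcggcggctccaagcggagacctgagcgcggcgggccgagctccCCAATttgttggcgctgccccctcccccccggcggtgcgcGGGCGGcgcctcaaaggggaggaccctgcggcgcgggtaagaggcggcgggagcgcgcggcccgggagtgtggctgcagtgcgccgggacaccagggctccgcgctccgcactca
COL27A1: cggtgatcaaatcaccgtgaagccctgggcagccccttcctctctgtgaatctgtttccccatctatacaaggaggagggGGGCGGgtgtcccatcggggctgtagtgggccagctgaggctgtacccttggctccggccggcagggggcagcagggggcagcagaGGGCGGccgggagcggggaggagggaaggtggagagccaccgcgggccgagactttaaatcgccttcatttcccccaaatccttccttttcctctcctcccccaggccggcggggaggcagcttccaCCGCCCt
COL7A1: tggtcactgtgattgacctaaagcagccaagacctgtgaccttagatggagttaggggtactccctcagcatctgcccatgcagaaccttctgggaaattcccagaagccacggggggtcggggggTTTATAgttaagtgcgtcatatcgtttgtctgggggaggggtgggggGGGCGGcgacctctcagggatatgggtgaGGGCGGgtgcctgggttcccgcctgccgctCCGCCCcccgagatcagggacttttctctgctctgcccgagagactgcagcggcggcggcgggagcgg
COL4A5: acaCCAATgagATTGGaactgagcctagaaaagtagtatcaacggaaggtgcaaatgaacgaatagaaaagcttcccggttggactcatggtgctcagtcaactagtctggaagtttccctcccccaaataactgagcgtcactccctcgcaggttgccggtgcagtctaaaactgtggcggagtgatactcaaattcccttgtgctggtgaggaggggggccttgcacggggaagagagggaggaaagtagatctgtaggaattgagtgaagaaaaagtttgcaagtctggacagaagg
The starts of COL4A1 and COL4A2 lie 127 bases apart on opposite strands, so that position 124 of the COL4A2 window is the start of COL4A1. The window has a GC content of 77.7%, against 65.7% for COL27A1, 62.3% for COL7A1 and 49.3% for COL4A5. RefSeq windows were matched for 32 of the 44 genes (44 windows). GGGCGG was found in 24 of these 44 windows, against 45.0% of all 35116 windows, CCAAT in 14 against 34.6%, TATAAA in 8 against 11.5%, TGANTCA in 1 against 7.71%, and a CArG box in none against 1.29%. CCAAT or TATAAA can lie inside a CArG box, both strands were searched, and a match describes the letters only.

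The libraries held 18206982 to 64948114 counts with a median of 41773419, and the smallest was that of 20 min. Collagen genes made up 1.28% to 1.78% of the counts of protein-coding genes, with the lowest share at 400 min. Libraries also differed in base composition. Genes were put in 20 bins by GC content, and the level of a bin was its median log2 ratio of a gene to that gene's mean over libraries. The top bin stood at −0.29 in the 400 min library, against 0.041 in the 0 min library. Of 12 astrocytic and glioblastoma markers, 6 did not pass the filter (GFAP, S100B, SOX2, AQP4, FABP7 and ALDH1L1, with at most 6 counts in any library). The other 6 passed. They were vimentin, CD44, SOX9 at 941 to 1582 normalised counts, SLC1A3 at 247 to 621, NES at 21.2 to 61.65 and OLIG2 at 8.30 to 65.0. All 8 mesenchymal markers passed. Endothelial markers summed to 34.3 to 64.2 normalised counts over the course, with CLDN5 at 0 throughout, and the epithelial and immune markers CDH1, ESRP1, CD3E and AIF1 had at most 2 counts, while ITGAM reached 97.5 normalised counts, CLDN4 35.0, EPCAM 27.5, CSF1R 24.6 and PTPRC 12.1. The summed epithelial list ran from 1732 to 3965, mostly keratins KRT8 and KRT18, and the lysosomal CD68, which macrophages also express, ran from 1404 to 2362. All 8 serum response genes were higher at 30 min and at 60 min than at 0 min (1.71% and 5.15% of all genes tested). At 120 min 6 were higher and 1 lower (13.6% and 6.75%), with a median log2 change of 2.98 over the list.

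Levels differed widely between collagen genes (mean normalised count per kb of exon). COL6A3, a chain of the type VI filaments, had 168991 normalised counts on average, the fourth highest among 14056 protein-coding genes tested, and COL1A2, the α2 chain of type I collagen, had 78460. Per kb of exon these 2 stood close, at 7854 for COL6A3 and 7257 for COL1A2, and 16050 and 15470 per kb of the canonical transcript. COL6A2, COL5A2, COL6A1, COL12A1 and COL4A1 followed with levels of 2238, 2218, 2121, 1457 and 1146 per kb of exon. COL5A1, COL7A1, COL4A2 and COL18A1 lay between 492 and 787 per kb. COL8A1, COL16A1, COL3A1, COL27A1 and COL14A1 lay between 42.8 and 160 per kb, and COL8A2 and COL1A1 at 14.0 and 11.8.

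Most of these genes lie apart on GRCh38: COL6A3 at chr2:237324003-237414328, COL1A2 at chr7:94394895-94431227, COL27A1 at chr9:114155537-114312511, COL7A1 at chr3:48564073-48595329 and COL8A1 at chr3:99638475-99799226. COL4A1 at chr13:110148963-110307157 and COL4A2 at chr13:110305812-110513209 point away from each other, and their first parts overlap on opposite strands in GENCODE. COL6A1 and COL6A2 are neighbours on chromosome 21, 93.1 kb apart, and COL3A1 and COL5A2 on chromosome 2, 19.2 kb apart.

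The other 12 tested genes had fewer than 100 normalised counts on average and at most 5.97 per kb. They were COL2A1, COL4A4, COL4A5, COL4A6, COL5A3, COL11A2, COL13A1, COL17A1, COL19A1, COL21A1, COL22A1 and COL24A1. COL3A1, the chain of type III collagen that accompanies type I in skin and vessels, thus stood far below COL1A2. The sharpest contrast was within type I collagen itself, where COL1A2 outnumbered COL1A1 in all 41 libraries, and this pair is described below with the other subunits.

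**Figure D1:**
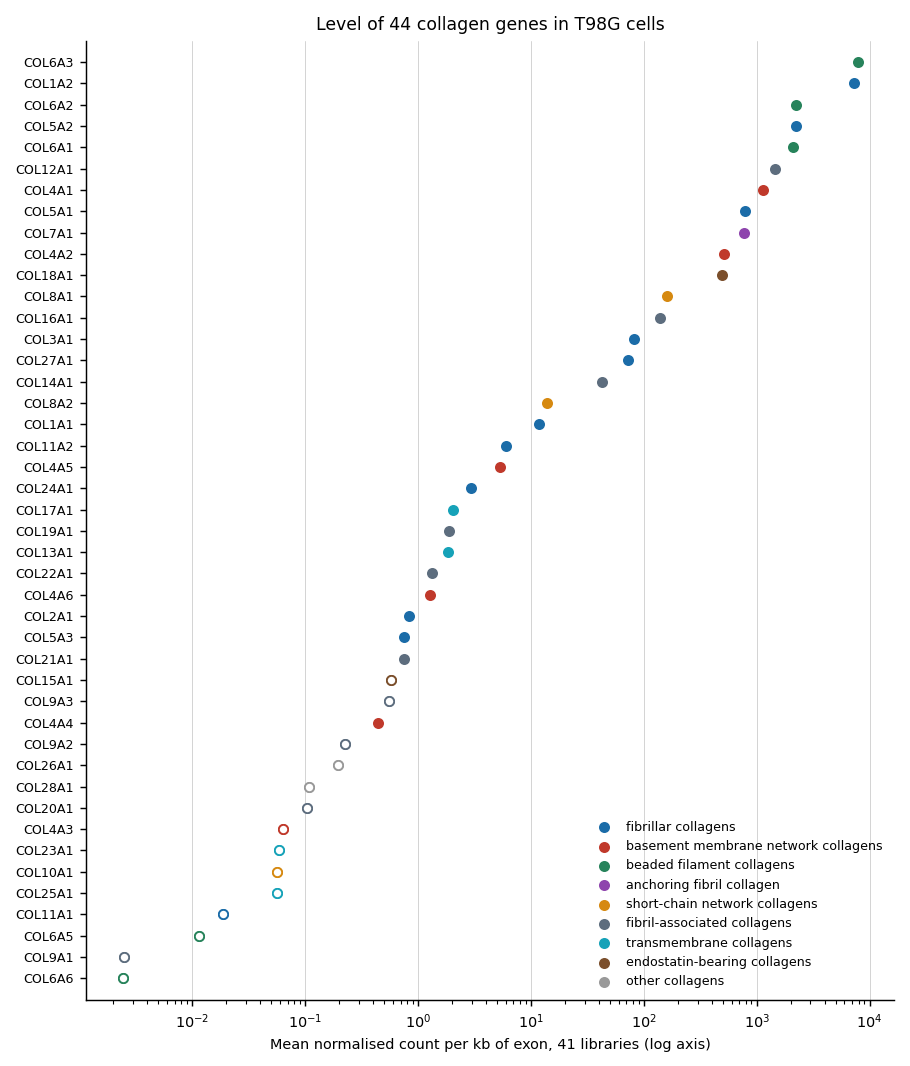
Mean normalised count per kb of merged exon over 41 libraries (log axis) for each of the 44 collagen genes, coloured by structural class; open points are the 14 genes that did not pass the filter. COL6A3 and COL1A2 stand at the top at 7854 and 7257 per kb, while COL1A1 lies at 11.8 per kb.

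To follow each gene along the course, edgeR fitted the counts as a smooth curve (natural cubic spline) over time, and the curve at a later time was compared with that at 0 min, at an adjusted p below 0.01. With 1 library a time point, each standard error (SE) and p-value measures only the spread of the libraries about a smooth curve. Of the 30 genes tested, 24 changed over the course, against 75.5% of all 21629 genes tested, and 22 were autocorrelated by the Ljung–Box test, against 61.1% of 21404. The 6 that did not pass the course test were COL2A1, COL4A4, COL4A6, COL5A3, COL13A1 and COL21A1, all with mean normalised counts under 22. In a culture read in bulk, fewer cells with a transcript and less of it in each cell cannot be told apart.

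Against 0 min, 1 collagen gene was higher at 30 min (1.71% of all genes tested) and 2 at 60 min (5.15%). None was lower at 30 or 60 min (0.342% and 1.23% of all genes). Then 8 were higher at 120 min (13.6%) and none lower (6.75%), and 10 were higher at 240 min (21.6%) and 3 lower (18.5%). At 400 min 8 were higher (24.2%) and 10 lower (22.4%), so their share of 26.7% lay near the background and that of 33.3% above it, a difference that was given no test. With size factors from the spike-in RNAs the 400 min split was 7 higher and 4 lower, or 23.3% and 13.3%, against 12.9% and 12.0% of all genes, so that the higher share then stood above the background and the lower share near it. Those 4 were the low genes COL4A5, COL11A2, COL19A1 and COL24A1. The falls of COL1A2, COL3A1, COL6A3, COL12A1, COL14A1 and COL16A1 lost their call. The median log2 change of the 30 genes was 0.19 at 120 min and −0.049 at 400 min, against 0.0080 and −0.0042 over all genes tested.

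Type IV collagen rose most. COL4A1 had 3446 normalised counts at 0 min, then 3396 (30 min), 4166 (60 min), 12415 (120 min), 23272 (240 min) and 23149 (400 min). In the 5 libraries of 360 to 400 min it lay between 23149 and 24373 with a median of 23533, against 3148 to 3446 with a median of 3357 in the 5 libraries of 0 to 40 min. Its level moved little in the first 60 min, was far higher by 240 min and remained there, and no late library overlapped an early one. The fitted log2 change was 2.80 (SE 0.08) at 400 min and 0.33 (SE 0.07) at 60 min, with edgeR adjusted p of 1.4e-30 and 6.9e-04. A gap of this kind between the 5 late and 5 early libraries is common. Over all genes tested, the late libraries lay wholly above the early ones in 26.3% and wholly below in 25.3%.

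COL4A2, the gene on the opposite strand that supplies the α2 chain of the same trimer, had 3028 normalised counts at 0 min, then 3411 (60 min), 7295 (120 min), 14272 (240 min) and 12124 (400 min). Its 5 late libraries lay between 12124 and 14180, against 2932 to 3700 in the 5 early ones. The log2 change at 400 min was 2.14 (SE 0.10, edgeR adjusted p = 1.7e-23). The profiles of the pair had a Pearson's r of 0.989 over the 41 libraries. Counting was by strand, so reads of these 2 genes on opposite strands were told apart. Together COL4A1 and COL4A2 held 10.8% of all collagen counts at 400 min, against 1.86% at 0 min.

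The other type IV genes were low. COL4A5, a chain of the kidney and skin networks, had 71.6 normalised counts at 0 min, then 93.9 (30 min), 94.1 (120 min), 59.1 (240 min) and 33.3 (400 min). Its late libraries lay between 32.5 and 39.3, below the early ones at 69.4 to 106. The log2 change was −1.06 (SE 0.22) at 400 min against 0 min and −1.37 (SE 0.15) against 120 min, with edgeR adjusted p of 4.7e-05 and 4.8e-11. Its divergent neighbour COL4A6 averaged 11.8 normalised counts and COL4A4 5.22, and neither passed the threshold in any comparison.

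Of 10 fibrillar collagens tested, 3 were higher at 400 min than at 0 min and 4 lower. Over all genes tested these shares were 24.2% and 22.4%. COL27A1, a minor chain known from cartilage, followed the type IV pair most closely, with a Pearson's r of 0.989 with COL4A2 over the 41 libraries. It had 461 normalised counts at 0 min, then 415 (60 min), 648 (120 min), 1514 (240 min) and 1286 (400 min). Late libraries lay between 1259 and 1391, against 380 to 461 early. The log2 change at 400 min was 1.54 (SE 0.10, edgeR adjusted p = 1.4e-18), and that against 120 min was 0.95 (SE 0.06).

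COL5A1, the chain of type V collagen that helps to set fibril diameter, was highest in the middle of the course. It had 4993 normalised counts at 0 min, then 5371 (60 min), 7653 (120 min), 11707 (240 min) and 7879 (400 min). Late libraries lay between 7879 and 9858, above the early ones at 4993 to 6659. The log2 change was 1.18 (SE 0.11) at 240 min and 0.83 (SE 0.11) at 400 min, with edgeR adjusted p of 3.3e-12 and 5.5e-08. Its partner COL5A2 had 16554 normalised counts at 0 min, then 16583 (120 min) and 16800 (400 min). It passed the test over the course but none of the comparisons between times.

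COL1A1, the α1 chain of type I collagen, was low and rose. It had 43.6 normalised counts at 0 min, then 71.6 (60 min), 134.7 (120 min), 107 (240 min) and 76.5 (400 min), with the highest count of 180 at 160 min. The log2 change was 1.63 (SE 0.27) at 120 min and 1.003 (SE 0.29) at 400 min, with edgeR adjusted p of 3.7e-06 and 0.0029. From 120 to 400 min it fell, with a log2 change of −0.63 (SE 0.16, edgeR adjusted p = 6.4e-04). Without the 0 min library the 400 min change was 0.775 (SE 0.78) and did not pass. The late libraries (76.5 to 104) lay above the early ones (43.6 to 70.2), as they did in 26.3% of all genes tested.

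COL1A2 and COL3A1 shared another profile, with a Pearson's r of 0.943. COL1A2 was the only collagen gene called at 30 min (log2 change 0.54, SE 0.07, edgeR adjusted p = 2.6e-07). Its normalised counts were 69230 at 0 min, then 87513 (10 min), 98126 (20 min), 103400.0 (30 min), 91500 (120 min), 78792 (240 min) and 56601 (400 min). Without the 0 min library the curve at 0 min is extrapolated, and the 30 min change was then 0.57 (SE 0.18, edgeR adjusted p = 0.26), a like size with a wider error. The decline from 120 to 400 min gave −0.60 (SE 0.04, edgeR adjusted p = 1.8e-16), and COL1A2 was also called lower in that comparison without the 0 min library.

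COL3A1 had 543 normalised counts at 0 min, then 728.5 (30 min), 603 (120 min), 565 (240 min) and 351 (400 min). Late libraries lay between 351 and 450, below the early ones at 543 to 758. The log2 change was −0.58 (SE 0.11) against 0 min and −0.74 (SE 0.08) against 120 min, with edgeR adjusted p of 1.7e-05 and 1.2e-11. Lower-expressed fibrillar genes fell too. COL11A2, a cartilage fibril chain, had 18.6 to 28.6 normalised counts in the late libraries, against 56.3 to 91.8 in the early ones, and the log2 change was −1.55 (SE 0.28) at 400 min. COL24A1 had 10.8 to 16.9 late, against 22.7 to 60.9 early, with −2.07 (SE 0.33). COL2A1, the main cartilage chain, and COL5A3 averaged 5.59 and 5.13 and passed no threshold.

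The type VI chains did not move together. COL6A3 had 187764 normalised counts at 0 min, then 155935 (60 min), 192086 (120 min), 176958 (240 min) and 144073 (400 min). Its late libraries lay between 142466 and 154629, below the early ones at 163011 to 187764. The log2 change was −0.35 (SE 0.07) against 0 min and −0.40 (SE 0.05) against 120 min, with edgeR adjusted p of 6.6e-05 and 4.8e-09. With spike-in size factors the changes were −0.32 (SE 0.21) and −0.36 (SE 0.15), and neither passed.

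COL6A1 had 9124 normalised counts at 0 min, then 7871 (60 min), 10907 (120 min), 13699 (240 min) and 10873 (400 min), with a log2 change of 0.49 (SE 0.14, edgeR adjusted p = 0.0033) at 400 min. Its late libraries (10873 to 13961) overlapped the early ones (8741 to 12212). COL6A2 had 10749 at 0 min, then 11540 (120 min), 14091 (240 min) and 10176 (400 min) and passed the test over the course but no comparison between times. Both transcripts are GC rich (63.5% and 66.4%), and COL6A2 had a Pearson's r of 0.637 over the 41 libraries with the level of the top GC bin. With a correction of each library for GC content, added after the data were seen, the 400 min changes were 0.64 (SE 0.06) for COL6A1 and 0.30 (SE 0.05) for COL6A2, and both passed. The COL6A1 call at 400 min was lost with spike-in size factors, evenly spaced knots, 5 spline terms, every second time point and without the 0 min library.

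COL7A1, the anchoring fibril chain, was higher from 120 min on. It had 5052 normalised counts at 0 min, then 3867 (10 min), 4176 (60 min), 6664 (120 min), 13039 (240 min) and 8572 (400 min). Late libraries lay between 8572 and 10959, against 3867 to 5052 early. The log2 change was 1.25 (SE 0.10) at 240 min and 0.86 (SE 0.10) at 400 min, with edgeR adjusted p of 9.2e-15 and 1.2e-09.

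COL8A1, a chain of the hexagonal network under vessel and corneal endothelium, was the late riser. It had 1155 normalised counts at 0 min, then 1112 (120 min), 1451 (240 min) and 2400.3 (400 min), its highest value. Late libraries lay between 2167 and 2400.3, against 924 to 1155 early. The log2 change at 400 min was 1.06 (SE 0.08) against 0 min and 1.03 (SE 0.05) against 120 min, with edgeR adjusted p of 3.2e-16 and 7.9e-23. Its partner COL8A2 fell to 41.2 normalised counts at 400 min, against 64.4 at 120 min, with a log2 change of −0.44 (SE 0.13, edgeR adjusted p = 0.0036). That call was lost with spike-in size factors, evenly spaced knots, every second time point, the GC correction and without the 400 min library.

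Of 6 fibril-associated collagens tested, 4 were lower at 400 min than at 0 min and none was higher. Over all genes tested these shares were 22.4% and 24.2%. None of the 4 falls kept its call without the 0 min library, and with spike-in size factors only that of COL19A1 did. COL16A1 went up first: it had 1200.3 normalised counts at 0 min, then 1447 (120 min), 1850.0 (160 min), 1576 (240 min) and 889 (400 min). It was higher at 120 min, with a log2 change of 0.36 (SE 0.09, edgeR adjusted p = 0.0011), and lower at 400 min than at 120 min, with −0.67 (SE 0.06, edgeR adjusted p = 4.2e-13). Its change of −0.31 (SE 0.09, edgeR adjusted p = 0.0027) at 400 min against 0 min turned to 0.024 without the 0 min library and did not pass with the GC correction.

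COL12A1, a chain of dense connective tissue and the most abundant of its class, had 31514 normalised counts at 0 min, then 23667 (30 min), 29503 (120 min), 27433 (240 min) and 26782 (400 min). The early libraries spanned 23667 to 31514 and held nearly all of the late range of 23663 to 26782. Its log2 change at 400 min was −0.32 (SE 0.09, edgeR adjusted p = 0.0033) against 0 min and −0.27 (SE 0.06, edgeR adjusted p = 3.4e-04) against 120 min. COL14A1, its close relative, had 501 at 0 min, then 464 (120 min) and 414 (400 min), with late libraries at 299 to 414 below the early ones at 458 to 553. Its log2 change was −0.47 (SE 0.12) at 400 min, with an edgeR adjusted p of 9.7e-04. COL19A1, at 20.6 normalised counts on average, fell by 1.46 (SE 0.36) on the log2 scale at 400 min. COL21A1 passed no threshold. COL22A1, a chain of tissue junctions, passed the test over the course and had 10.6 to 24.3 normalised counts in the late libraries, against 2.24 to 7.88 in the early ones. Its log2 change at 400 min was 1.58 (SE 0.61, edgeR adjusted p = 0.025), which missed the threshold.

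COL18A1, whose C-terminal fragment is endostatin, had 3094 normalised counts at 0 min, then 3951 (120 min), 5416 (240 min) and 3507 (400 min). On the curve it was called at 240 min alone, with a log2 change of 0.72 (SE 0.13, edgeR adjusted p = 2.0e-05), and the late libraries (3507 to 4744) overlapped the early ones (2915 to 3984). With the GC correction it passed at 400 min too, with 0.55 (SE 0.06). Of the transmembrane collagens, COL17A1 of the hemidesmosome was called on the curve for 400 min against 120 min alone, with a log2 change of 1.23 (SE 0.32, edgeR adjusted p = 9.3e-04) at a mean of 14.3 normalised counts. It lost that call with evenly spaced knots or every second time point. Its late libraries (15.7 to 26.6) lay above the early ones (2.24 to 13.2). COL13A1 averaged 21.2 normalised counts and passed no threshold.

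**Figure D2:**
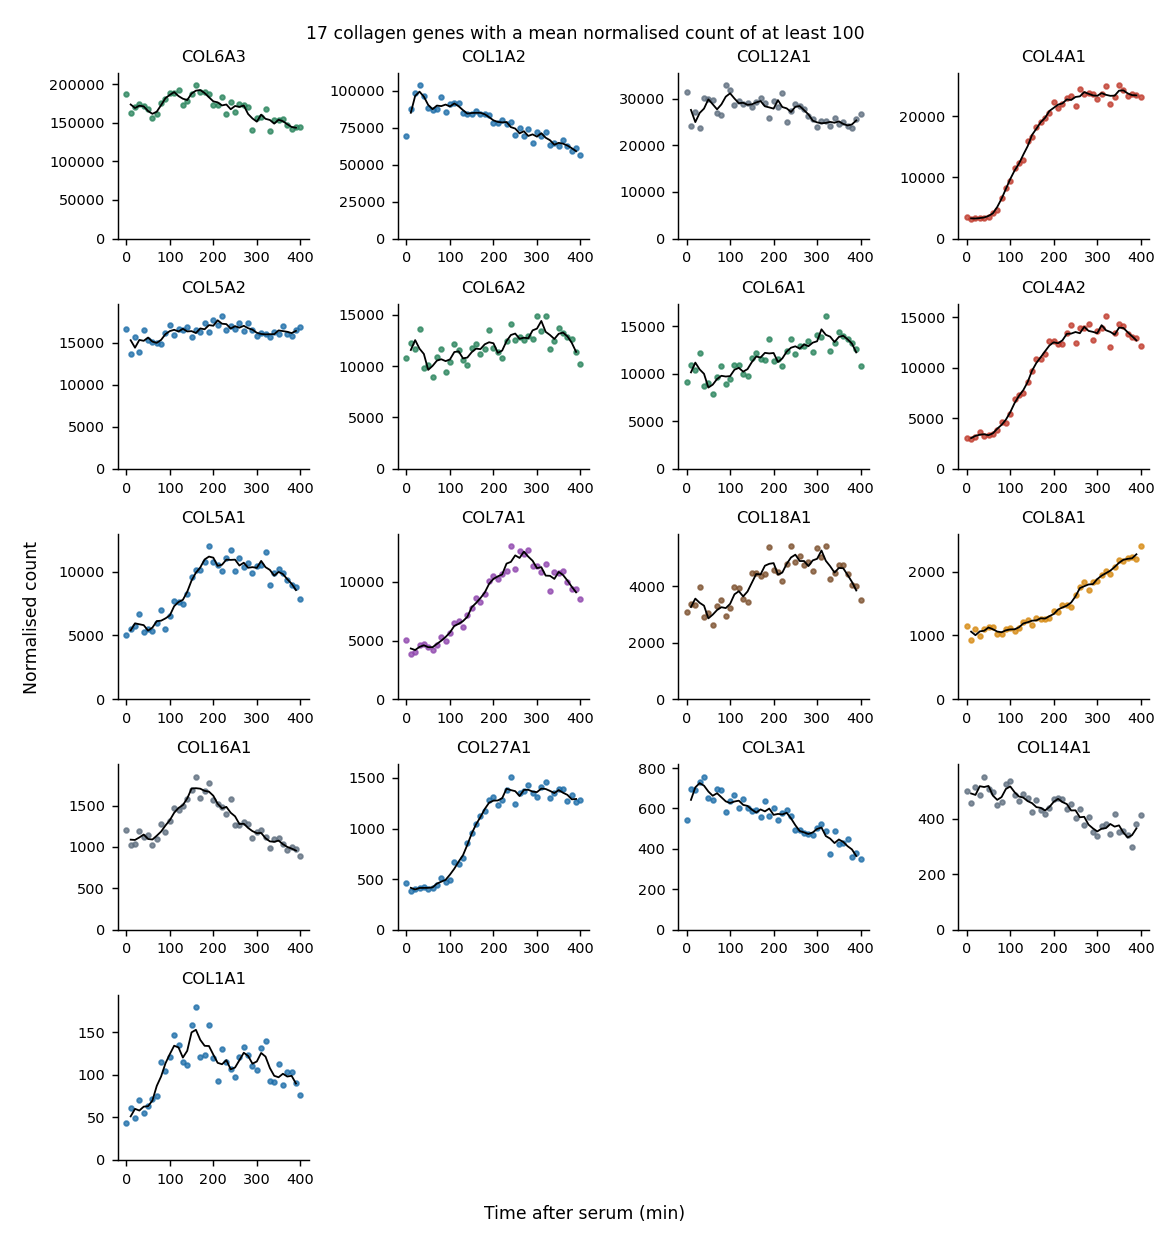
Normalised count against time after serum (min) for the 17 collagen genes with a mean of at least 100; each point is 1 library, each line the running mean of 3 libraries, and every axis starts at 0. COL4A1, COL4A2, COL27A1 and COL7A1 climb after about 60 min, COL8A1 is highest at 400 min, and COL1A2 and COL3A1 decline after 30 to 40 min.

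The second phase of the course was tested on its own by comparing 400 min with 120 min. Here 6 collagen genes were higher (23.8% of all genes tested) and 12 lower (24.1%). The 6 were COL17A1, COL8A1, COL27A1, COL4A1, COL4A2 and COL7A1. The 12 were COL24A1, COL4A5, COL11A2, COL19A1, COL3A1, COL16A1, COL1A1, COL1A2, COL14A1, COL8A2, COL6A3 and COL12A1. Thus 20.0% of the tested collagen genes were higher, somewhat under the background, and 40.0% were lower, above it, a difference that was given no test. With the GC correction 11 were higher and 11 lower, 36.7% each, against 24.5% and 27.5% of all genes, and with 5 spline terms or without the 400 min library 9 were higher, so the higher share stood under or above the background by the fit used. The same 18 genes were called without the 0 min library. COL1A1 and COL16A1 were both higher at 120 min than at 0 min and lower at 400 min than at 120 min. The COL16A1 rise at 120 min lost its call with spike-in size factors, every second time point and without the 0 min library. That of COL1A1 was lost without the 0 min library, and the later COL1A1 fall with every second time point.

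Without the 0 min library, with the curve at 0 min extrapolated from 10 min on, 6 of the 8 rises at 400 min kept their call (COL4A1, COL4A2, COL27A1, COL5A1, COL7A1 and COL8A1) and none of the 10 falls did, while calls among all genes fell to 8.17% higher and 5.24% lower. The direction held for all 8 rises and 9 of the 10 falls, 7 of those rises and 3 of those falls were at least as large as with that library, and the SE was 2.34 to 2.70 times as wide for the rises and 2.48 to 2.91 times for the falls. COL24A1 and COL3A1 then had log2 changes of −2.10 (SE 0.95) and −0.83 (SE 0.28), and COL6A3 and COL12A1 −0.058 (SE 0.19) and −0.054 (SE 0.25). Another comparison set the 5 libraries of 360 to 400 min against the 5 of 0 to 40 min, with consecutive time points standing in for replicates. It does not lean on a single library, but its early group includes 10 to 40 min after serum. COL1A2 and COL3A1 stood above their 0 min level in those libraries, so their falls here are not falls against 0 min. By this comparison edgeR called 11 higher and 9 lower (27.2% and 27.7% of all genes), and all 8 rises and 8 of the 10 falls were among them. COL12A1 and COL16A1 were not, and COL17A1, COL18A1 and COL22A1 were called higher and COL8A2 lower in addition.

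**Figure D3:**
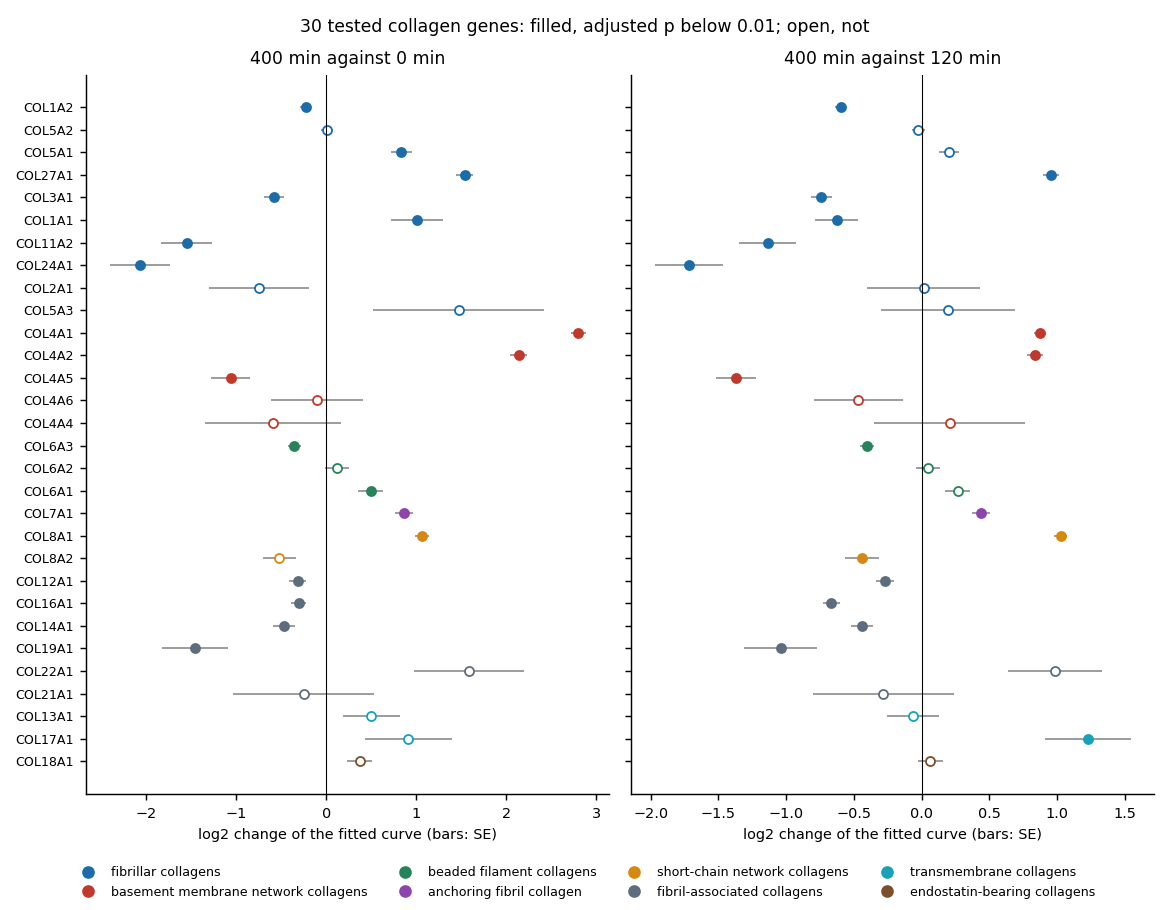
Change of the fitted curve (log2) for the 30 tested collagen genes at 400 min against 0 min (left) and against 120 min (right), with SE bars; filled points passed an adjusted p of 0.01 and colours give the class. COL4A1 at 2.80 and COL24A1 at −2.07 mark the ends on the left, and COL1A1 lies above 0 on the left and below it on the right.

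The balance of chains that assemble together was followed as the log2 ratio of their normalised counts, fitted with the same spline by least squares, with a 95% interval. Of 8 pairs, 6 had a mean count of at least 20 in both genes. COL4A3 with COL4A4 and COL4A5 with COL4A6 did not. The ratio of COL4A1 to COL4A2 was 1.14 at 0 min, then 1.70 (120 min), 1.63 (240 min) and 1.91 (400 min), a change in log2 ratio of 0.66 (95% interval 0.51 to 0.82) at 400 min against 0 min. Both genes of the pair rose, and COL4A1 by more. COL4A1 has a GC content of 55.2% and COL4A2 61.8%, and with the GC correction their log2 changes at 400 min were 2.82 and 2.26.

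COL1A2 exceeded COL1A1 by 479 to 1990-fold in normalised counts across the 41 libraries, although the common trimer of type I collagen holds more α1 than α2 chains. The merged exons of the 2 genes are of like length (9.01 kb for COL1A1 and 10.8 kb for COL1A2), and per kb COL1A2 stood 1320-fold higher at 0 min, 566-fold at 120 min and 617-fold at 400 min. The log2 ratio of COL1A1 to COL1A2 rose by 1.18 (95% interval 0.74 to 1.63) at 400 min, which brought the pair closer without coming near parity.

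The ratio of COL5A1 to COL5A2 was 0.302 at 0 min, then 0.461 (120 min), 0.692 (240 min) and 0.469 (400 min), a change of 0.82 (95% interval 0.51 to 1.13). The neighbours COL6A1 and COL6A2 kept close levels, with COL6A2 at 0.899 to 1.18 times COL6A1 over all libraries, and the log2 ratio of COL6A1 to COL6A2 changed by 0.37 (95% interval 0.28 to 0.45). COL6A3 over COL6A1 moved the other way, by −0.83 (95% interval −1.09 to −0.58), with 13.3 at 400 min against 20.6 at 0 min. COL8A1 over COL8A2 shifted most, by 1.60 (95% interval 1.25 to 1.95), with 58.3 at 400 min against 16.4 at 0 min. The 0 min ratio was the lowest of the 41 libraries for COL5A1 to COL5A2 and for COL6A1 to COL6A2, and the highest for COL6A3 to COL6A1. The changes of these pairs thus rest in part on that library. The 400 min ratio was in turn the highest for COL4A1 to COL4A2 and for COL8A1 to COL8A2. Their changes rest in part on the 400 min library. COL8A1 has a GC content of 46.5% and COL8A2 61.7%. All 6 intervals leave out 0, and in each pair the chains differed in GC content or level, whose part in the ratios was not tested beyond the values above.

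**Figure D4:**
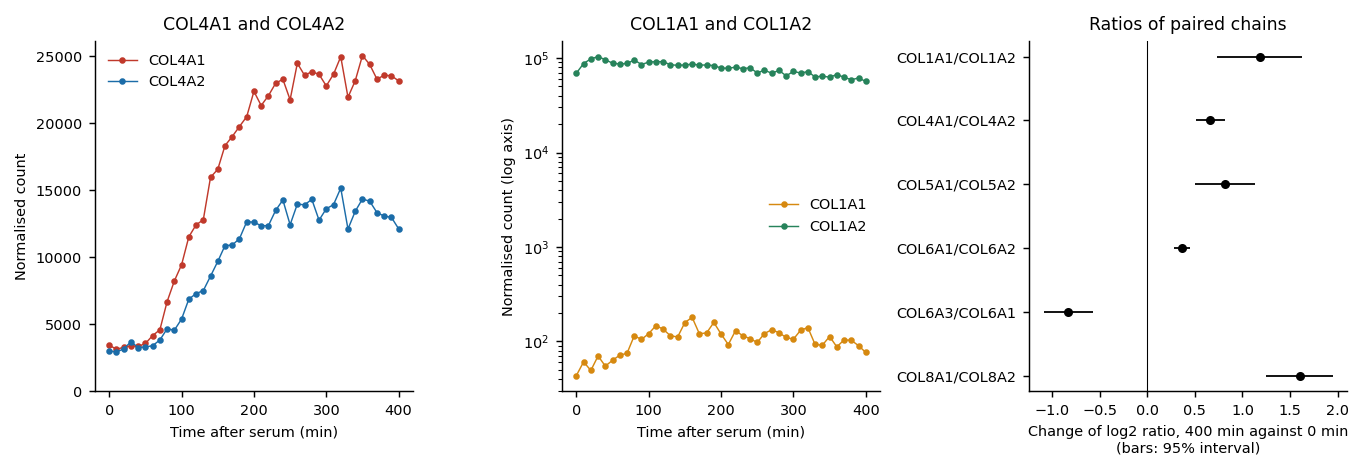
Left and middle, normalised counts of COL4A1 and COL4A2 (linear axis) and of COL1A1 and COL1A2 (log axis) against time after serum (min), each point 1 library; right, change in log2 ratio of paired chains at 400 min against 0 min with 95% intervals. COL4A1 and COL4A2 start together near 3446 and 3028 and separate, COL1A2 stays at least 479-fold above COL1A1, and only COL6A3/COL6A1 shifts below 0.

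The time at which each gene passed the midpoint of its change was read from the running mean of 3 libraries, for the 9 genes called at 400 min with a log2 change of at least 0.5 either way and a mean count of at least 50. COL1A1 passed it at 61.1 min, COL5A1 at 109 min, COL4A1 at 128 min, COL4A2 at 134 min, COL7A1 at 139 min, COL27A1 at 142 min and COL8A1 at 253 min. The falls of COL4A5 and COL3A1 passed theirs at 242 and 250.0 min. COL1A1, COL5A1 and COL7A1 were highest at 160, 190 and 240 min and then declined. Their midpoints, set by the lower late level, thus come before the middle of the rise to their peak. COL1A1, the earliest, is also the shortest gene at 17.5 kb, but COL7A1 spans 31.3 kb and passed its midpoint close to COL4A1, COL27A1 and COL4A2, which span 158, 157 and 207 kb. COL8A1, which spans 161 kb, like COL4A1 and COL27A1, came more than 100 min after them. By this measure, which places genes with a middle peak early, no order by gene length is visible in these 9 genes.

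The genes that modify, export, process, anchor and bind collagen were taken from 6 lists of 84 genes, of which 75 were tested. At 400 min against 0 min 25 of them were higher and 23 lower, or 33.3% and 30.7%, against 24.2% and 22.4% of all genes tested. Without the 0 min library these counts were 11 and 3 (8.17% and 5.24% of all genes were then called), and with spike-in size factors 14 and 8 (12.9% and 12.0%). Against 120 min, 26 were higher and 26 lower (23.8% and 24.1% of all genes), and with spike-in size factors 13 and 10 (13.7% and 13.3%).

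Of 15 processing and cross-linking genes tested, 7 were higher and 5 lower at 400 min than at 0 min. Over all genes tested these shares were 24.2% and 22.4%. TGM2, a transglutaminase that cross-links matrix proteins, had 692 normalised counts at 400 min, against 44.6 at 0 min, a log2 change of 4.43 (SE 0.30, edgeR adjusted p = 1.0e-15). LOX, the lysyl oxidase that starts collagen cross-links, had 19723 counts at 400 min, against 2012 at 0 min, a log2 change of 3.30 (SE 0.14, edgeR adjusted p = 4.8e-23). The procollagen N-proteinases ADAMTS14 and ADAMTS2 had log2 changes of 1.86 (SE 0.23) and 1.84 (SE 0.12), and ADAMTS14 did not pass without the 0 min library. The 5 lower genes were ADAMTS3, TLL1, LOXL3, LOXL1 and PCOLCE, an enhancer of the C-proteinase. None of these 5 passed without the 0 min library, and TLL1, LOXL1 and PCOLCE did not pass with spike-in size factors.

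Of 15 modifying enzymes, 4 were higher and 4 lower, against 24.2% and 22.4% of all genes tested. P3H2, a prolyl 3-hydroxylase that acts on type IV collagen, had a log2 change of 1.84 (SE 0.06, edgeR adjusted p = 4.5e-28) at 400 min, and PLOD2, the lysyl hydroxylase of collagen telopeptides, 1.68 (SE 0.22, edgeR adjusted p = 4.3e-08). P3H3 and P4HA2, a catalytic subunit of prolyl 4-hydroxylase, had −0.66 and 0.57. Neither passed without the 0 min library, and P4HA2 did not pass with spike-in size factors. Of 15 chaperones and export factors, 4 were higher and 2 lower at 400 min than at 0 min (24.2% and 22.4% of all genes tested). Against 120 min, 7 were higher and 3 lower (23.8% and 24.1% of all genes tested). The largest called changes against 0 min were those of FKBP14, a prolyl isomerase, with 0.65, the COPII subunits SEC24D and SEC13 with 0.45 and 0.32, and LARP6, which binds type I collagen mRNA, with 0.37. None of these calls was kept with spike-in size factors or without the 0 min library.

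Of 14 basement membrane partners tested, 7 were higher and 5 lower, against 24.2% and 22.4% of all genes tested. The laminin chains split: LAMB3 had a log2 change of 1.62 (SE 0.12) and LAMC1 1.15 (SE 0.05), while LAMB1 fell by 1.37 (SE 0.07) on the log2 scale, each with an edgeR adjusted p of 2.1e-15 or less. Perlecan, the heparan sulfate proteoglycan encoded by HSPG2, had 1.39 (SE 0.21), which did not pass without the 0 min library. Of 8 fibril partners tested none was higher (24.2% of all genes tested) and 3 were lower (22.4%). The 3 were LUM, TNXB and MATN2, the last with −0.26 (SE 0.07). None of them passed without the 0 min library, and only TNXB passed with spike-in size factors. The abundant FN1 and SPARC had changes of −0.042 and −0.0088 and did not pass.

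Of 8 collagen receptors, 3 were higher and 4 lower, against 24.2% and 22.4% of all genes tested. ITGA2, the α2 chain of a collagen-binding integrin, had 2116 normalised counts at 0 min, then 1762 (120 min) and 8323 (400 min), a log2 change of 1.89 (SE 0.17, edgeR adjusted p = 3.9e-12) against 0 min. Its partner ITGB1 had 51690 at 400 min, against 21991 at 0 min, a log2 change of 1.12 (SE 0.13). ITGA10, the α10 integrin of cartilage, fell by 1.31 (SE 0.10) on the log2 scale, and ITGA1, the α1 integrin, had a change of 0.88 (SE 0.24). The ITGA1 call was lost with spike-in size factors and without the 0 min library.

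**Figure D5:**
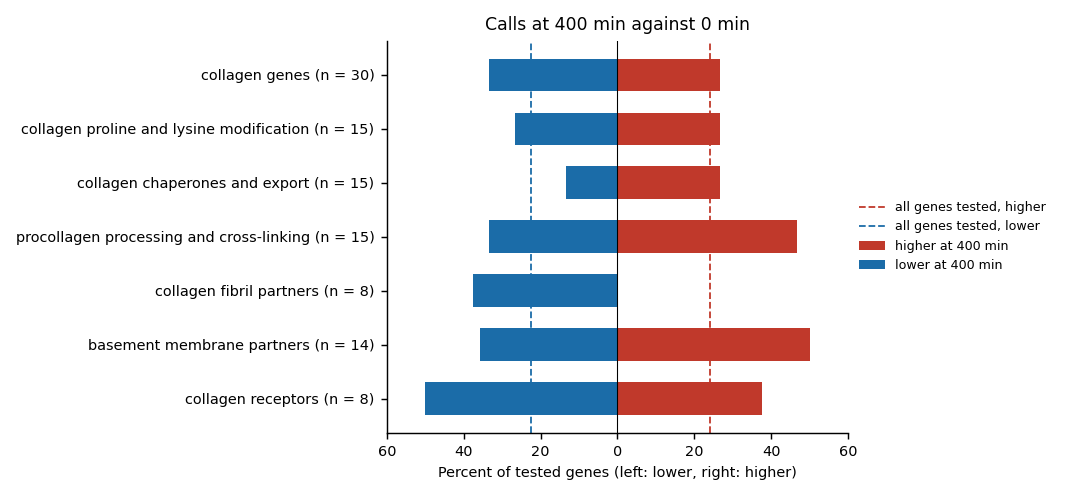
Percent of tested genes called higher (right, red) or lower (left, blue) at 400 min against 0 min in edgeR, for the collagen genes and the 6 lists of collagen-related genes; dashed lines give all 21629 genes tested (24.2% and 22.4%). The collagen genes lie at 26.7% higher and 33.3% lower, and no fibril partner was higher.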

How the data were processed

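Total RNA of 41 T98G samples, 1 per time point, was depleted of rRNA and sequenced as read pairs. The authors trimmed reads with cutadapt 1.11, aligned them to GRCh38 with STAR 2.5.2a and deposited counts per gene from featureCounts, over GENCODE 29 exons and by strand, with reads that map to or overlap several genes counted for each. The deposited normalised signal of a gene is its count over the library's size factor, which came from DESeq2 1.24.0. Collagen genes shared exon bases on their strand with other annotated genes in 3 cases, each a miRNA of at most 36 shared bases. The collagen genes, gene lists and rule for named genes (full values for collagen genes with a mean normalised count of at least 100 called in a comparison, and up to 4 per list with the largest called change) were chosen with earlier results of these data known. ADAMTS3, TLL1, LOXL3, LOXL1, PCOLCE, LUM, TNXB, FN1, SPARC and the low collagen genes fall outside the rule and were named after their values were seen.

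In edgeR 4.0.16 (R 4.3.3, limma 3.58.1), a 7-term spline (inner knots: 20, 40, 60, 100, 160, 260 min) was fitted to all 21629 genes past the filter by robust quasi-likelihood, scaled by the median of ratios, with 33 residual degrees of freedom. P-values were adjusted over all genes by Benjamini-Hochberg at 0.01. Library totals ran from 18206982 to 64948114 counts. Left out were 45 pseudoautosomal copies on the Y chromosome, and 77 spike-ins served only as an alternative scale. Symbols and positions came from GENCODE 44, and GC content from canonical transcripts. Log2 ratios of paired chains used a pseudocount of 1. Alternatives changed the scaling (spike-ins, TMM, library size), the filter, the spline, the libraries, the threshold and the test (DESeq2 1.42.0, windows of 5 libraries), and a GC correction was added after the data were seen. The fit was tested on simulated data. Plots were drawn with matplotlib 3.10.9.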

Additional observations from a re-analysis of the deposited data

How the results depend on the processing

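No paired analysis was possible because each time point has 1 library. Of 68 log2 changes of collagen genes in the comparisons above, refitted under the alternatives (761 values), 671 kept their direction and their side of the threshold, 71 lost the call, 10 gained one and 9 changed sign. Of the 71 lost calls, 26 came without the 0 min library and 22 with spike-in size factors. Of the sign changes, 8 concerned COL5A2 and COL6A2, which were not called, and 1 a called fall: COL16A1, at −0.31, gave 0.024 at 400 min against 0 min without the 0 min library. COL5A2 at 400 min against 0 min gave −0.011 with TMM, −0.066 with library size, −0.023 with every second time point, −0.016 without the 400 min library, −0.030 without the 4 libraries farthest from the curves and −0.11 with the GC correction, and 0.016 against 120 min with spike-in size factors. COL6A2 gave −0.16 at 400 min with evenly spaced knots. Spike-in size factors moved the median of all genes by −0.14 at 30 min and −0.23 at 60 min, and no filter by 0.10 at 240 min. With spike-in size factors, 0 collagen genes were higher at 30 or 60 min, 3 were higher at 120 min, and 4 were lower at 400 min. With evenly spaced knots, 0 were higher at 30 min and 1 was higher at 60 min, and 1 (COL11A2) was lower at 120 min. Without the 0 min library, 0 were higher at 30 or 60 min, 3 were at 120 min, 6 were at 240 min, and 0 were lower at 240 or 400 min. At an adjusted p below 0.05, 2 were higher at 30 min. Without the 4 farthest libraries, 1 was lower at 30 min. With a mean count of at least 50, 0 were lower at 240 min, since the 3 genes then left the test. With the GC correction 5 were lower at 240 min and 11 higher at 400 min against 120 min. TMM, library size, no filter, 5 spline terms, every second time point, the fit without the 400 min library, windows and DESeq2 kept every count of collagen genes within 1.5 times. For the collagen-related lists, spike-in size factors gave 14 higher and 8 lower at 400 min, and 13 and 10 against 120 min, and the fit without the 0 min library gave 11 and 3. The cause of these moves was not tested beyond what is stated. Depth limits the 14 genes that did not pass the filter and those tested at under 20 mean counts.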
